A study of Mus musculus with 10 samples.

Results

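The collagen genes are the 42 protein-coding genes whose symbols have the form Col, a type number, the letter a and a chain number, without Col17a1 and Col7a1, among 54446 genes counted in mouse esophagus. RNA from whole esophagus of wild-type C57BL/6 mice was sequenced by CEL-Seq, a method that counts tags near the 3′ ends of transcripts, in 5 OXA libraries and 5 vehicle libraries. OXA mice were put through a model of eosinophilic esophagitis that uses oxazolone, a contact-sensitizing chemical, and vehicle mice were given the control treatment; both groups were WT. The libraries are named C1, D1, D2, D3 and D4 for OXA and A1, A2, A3, A4 and A5 for vehicle, and values below are given in that order. What the letters stand for, the sex and age of the mice and the dose of OXA were not given in these sources. A difference between lettered sets and an effect of OXA therefore cannot be told apart. The labels do not say whether each library came from its own animal, and p-values measure only the spread between these libraries.

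Collagens are trimers of chains with a repeated glycine triplet, and each gene encodes 1 chain. Fibrillar collagens form the banded fibrils that give the lamina propria and submucosa of the esophagus their tensile strength, type IV collagens form the sheet of the basement membrane under the epithelium and around vessels and muscle, FACIT collagens sit on fibril surfaces, and type VI forms beaded microfilaments close to cells. The remaining genes encode the multiplexins, short-chain network formers, membrane-spanning collagens and others. Deposition of collagen under the epithelium is a known feature of eosinophilic esophagitis in patients.

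Library depth ran between 3675479 reads in D2 and 12108822 reads in A4. D2, D4 and A5 were the shallowest libraries. Values are the authors' normalized counts, which are gene counts divided by a size factor for each library, and 3 reads correspond on average to 3.5 normalized counts in OXA libraries and 2.82 in vehicle libraries. Epithelial markers, 10 genes, were present in both groups and their sum lay between 229412 and 557026 normalized counts in OXA and 603240.2 and 1019271 in vehicle libraries. Markers of skeletal muscle, which the mouse esophagus holds in its outer wall, were present too, and their sum lay between 92231 and 308534 normalized counts in OXA and 180041 and 234780.3 in vehicle libraries. Cartilage markers were low, with 8 of 9 under a mean of 5 normalized counts and Chad and Matn1 at 0 throughout.

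Summed collagen counts were higher in each OXA library than in any vehicle library, and fibrillar genes, Col3a1 above all, made up most of the difference. Summed over the 42 genes, collagen normalized counts were 45424, 41323, 39093, 26229 and 33008 in the OXA libraries and 25073, 18603, 23494, 18818 and 23697 in the vehicle libraries (mean 37015 ± 7516 in OXA and 21937 ± 3008 in vehicle). By the means this was 1.69-fold higher in OXA. As a share of all normalized counts in the library, collagen genes made up 0.605% ± 0.135 in OXA and 0.326% ± 0.0379 in vehicle libraries (SD, n = 5 each). These sums have no p-value, because the genes were chosen with earlier results known. In whole tissue, a change in the number of cells that make a collagen and a change in its RNA per cell cannot be told apart.

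Of the 42 genes, 29 had a mean of at least 5 normalized counts over the 10 libraries and were tested, and 13 fell below that level. In limma's test on log2(normalized count + 1), adjusted over 14712 genes, 7 of the 29 rose in OXA esophagus and 4 fell, which is 24.1% and 13.8% of those tested. Over all tested genes 15.7% were called higher and 14.2% lower, and 29.9% were called in either direction, so the share of collagen genes called lower was close to that background. The median log2 fold change was 0.06 over the 29 collagen genes and -0.01 over all tested genes. Groups did not overlap for 4 of the 29 genes that were above vehicle in OXA, against 12.0% of all tested genes, and for 3 genes that were below it, against 10.4%. Without library D2 the count of collagen genes called higher was 11 and that of genes called lower was 4, whereas without A1 or without A5 2 genes were called lower. With counts scaled to the library total, which moved the median of all genes to 0.11, 8 collagen genes were higher and 2 lower.

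**Figure D1:**
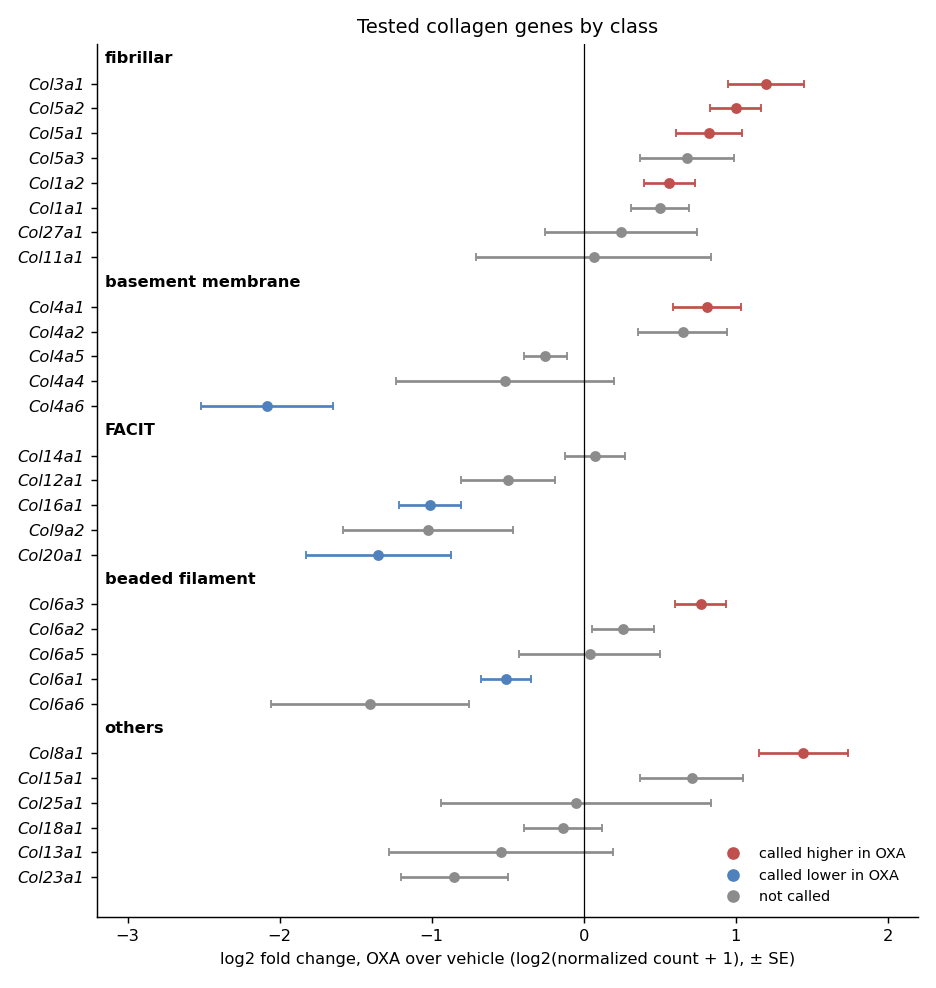
Log2 fold changes of OXA over vehicle on the log2(normalized count + 1) scale, with standard errors, for the 29 tested collagen genes, grouped by class. Points in red rose and points in blue fell in limma's test adjusted over all genes. In this fit the 8 fibrillar genes lie at or above 0.06, and the FACIT genes between -1.35 and 0.07. The lowest fibrillar gene, Col11a1, took the other sign in 11 of 23 alternative fits, and Col27a1 in 2 of 24.

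The sequence just before the transcription start is shown for the called genes whose window holds no annotated exon, to give the regulatory context of genes that moved in the 2 directions. Each line holds 250 bases ending at the base before the RefSeq start (GRCm38.p6), read 5′ to 3′ on the gene's strand, with capitals marking the TATA motif (TATAA), the CCAAT motif and the GC box (GGGCGG) on either strand, overlapping matches run together. Col3a1 (chr1:45311288-45311537, plus strand), Col5a1 (chr2:27886175-27886424, plus strand), Col6a3 (chr1:90843972-90844221, minus strand) and Col8a1 (chr16:57754738-57754987, minus strand) rose, and Col4a6 (chrX:141474077-141474326, minus strand) fell.
Col3a1: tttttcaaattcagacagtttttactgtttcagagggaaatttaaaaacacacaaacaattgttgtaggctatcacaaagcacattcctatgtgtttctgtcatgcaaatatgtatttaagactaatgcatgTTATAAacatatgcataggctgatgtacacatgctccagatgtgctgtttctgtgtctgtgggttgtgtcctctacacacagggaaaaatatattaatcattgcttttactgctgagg
Col5a1: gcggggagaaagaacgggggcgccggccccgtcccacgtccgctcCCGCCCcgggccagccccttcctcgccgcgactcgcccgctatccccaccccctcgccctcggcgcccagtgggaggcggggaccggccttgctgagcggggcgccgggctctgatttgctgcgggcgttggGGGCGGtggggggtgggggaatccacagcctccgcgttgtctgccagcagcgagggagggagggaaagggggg
Col6a3: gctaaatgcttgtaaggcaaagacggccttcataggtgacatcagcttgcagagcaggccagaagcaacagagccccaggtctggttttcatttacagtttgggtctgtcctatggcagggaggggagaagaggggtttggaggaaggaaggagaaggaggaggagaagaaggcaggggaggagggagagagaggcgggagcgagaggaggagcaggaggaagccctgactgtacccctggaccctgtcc
Col8a1: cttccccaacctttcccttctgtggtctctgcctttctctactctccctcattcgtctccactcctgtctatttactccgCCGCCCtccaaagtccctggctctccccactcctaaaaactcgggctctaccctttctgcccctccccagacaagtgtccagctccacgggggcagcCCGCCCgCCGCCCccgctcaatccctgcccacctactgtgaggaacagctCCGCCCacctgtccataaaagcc
Col4a6: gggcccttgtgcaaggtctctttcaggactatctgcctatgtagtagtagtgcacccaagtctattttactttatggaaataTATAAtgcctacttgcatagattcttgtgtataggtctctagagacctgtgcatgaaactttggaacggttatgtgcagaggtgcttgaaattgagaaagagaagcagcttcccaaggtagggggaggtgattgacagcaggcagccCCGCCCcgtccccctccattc

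These 5 windows differed in base composition, with a GC content of 35.2% for Col3a1, 76.4% for Col5a1, 57.2% for Col6a3, 60.8% for Col8a1 and 47.6% for Col4a6. Col3a1 held the TATA motif on both strands in 1 overlapping match, Col5a1 held the GC box in 2 places and Col8a1 in 4, Col4a6 held 1 TATA motif and 1 GC box, and Col6a3 held none of the 3 motifs. RefSeq windows were available for 33 of the 42 genes, 36 windows in all. The GC box occurred in 58.3% of these 36 windows and in 32.7% of 32851 mouse windows of the same length, the TATA motif in 16.7% and 22.8%, and the CCAAT motif in 30.6% and 33.8%. A match is a description of the letters in the window.

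Among the fibrillar collagens, 4 of 8 tested genes rose and none fell in limma's test, beside 15.7% higher and 14.2% lower over all tested genes. For 8 genes, a count of 0 lower is close to that share. The median log2 fold change was 0.62. The count lower was 0 at an unadjusted p below 0.05 as well, and 0 with edgeR, DESeq2 and limma-voom. Col3a1 encodes the chain of type III collagen, which is laid down with type I in distensible organs. Col3a1 had 22437, 18663, 22598, 10935 and 17277 normalized counts in the OXA libraries, against 8802, 5804, 9951, 5966 and 9319 in the vehicle libraries. All 5 OXA libraries exceeded the vehicle libraries, and the log2 fold change was 1.20 ± 0.25 (SE; limma adjusted p = 0.00257). With smooth and skeletal muscle marker scores as covariates it was 0.78 (limma adjusted p = 0.0189). Col5a2 and Col5a1 encode chains of type V collagen, which starts type I fibrils and limits their diameter. Col5a2 had 612, 583, 547, 412 and 441 normalized counts in the OXA libraries, against 354, 242, 276, 216 and 216 in the vehicle libraries. These values did not overlap between the groups, with a log2 fold change of 1.0 ± 0.17 (limma adjusted p = 0.000598). Col5a1 had 872, 838, 523, 409.9 and 490.1 normalized counts in the OXA libraries, against 424, 295, 355, 258 and 382 in the vehicle libraries. The lowest OXA library, D3, lay just under the highest vehicle library, and the log2 fold change was 0.83 ± 0.22 (limma adjusted p = 0.0112).

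Col1a2, which encodes the α2 chain of type I collagen, the main fibril former, also rose. Its log2 fold change was the smallest among the called fibrillar genes, but whether it rose less than the other called ones was not tested. Col1a2 had 9398, 8475, 6796, 5831 and 7129 normalized counts in the OXA libraries, against 5347, 4464, 5274, 4692 and 5416 in the vehicle libraries. The groups did not overlap, and the log2 fold change was 0.56 ± 0.17 (limma adjusted p = 0.0213). This call was lost without library A2 (limma adjusted p = 0.0562), without A4 (0.0543) or without C1 (0.0631), and with no filter on low values (0.0665). Its partner chain Col1a1 averaged 2532 ± 743 normalized counts in OXA and 1740.0 ± 226 in vehicle libraries (SD, n = 5 each), with a log2 fold change of 0.50 ± 0.19 that missed the threshold (limma adjusted p = 0.0630). Libraries D2 and D3, at 1725 and 2004 normalized counts, lay among the vehicle libraries for Col1a1, and without D2 the log2 fold change was 0.63 and passed (limma adjusted p = 0.0179). Col1a1 also passed with counts scaled to the library total (limma adjusted p = 0.0359), with edgeR (0.0479), with DESeq2 (0.0261), with the muscle scores as covariates (limma adjusted p = 0.0281) and without A5, D2 and D4 (0.0214). Col5a3, another type V chain, averaged 35.6 ± 13.0 normalized counts in OXA and 21.1 ± 5.04 in vehicle libraries (SD, n = 5 each) and was not called (limma adjusted p = 0.112), but was called without D2 (limma adjusted p = 0.0264), without A5, D2 and D4 (0.0217), with the muscle scores (0.0483), with DESeq2 (0.0415) and with limma-voom (0.0433).

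The other tested fibrillar genes were not called in limma's main comparison. Col27a1, known from cartilage, ranged between 30.3 and 123 normalized counts in OXA libraries and between 21.4 and 134 in vehicle libraries. With the muscle scores as covariates its log2 fold change was 1.28 and was called (limma adjusted p = 0.0488), against 0.25 without them (limma adjusted p = 0.745). Col11a1, a chain of the cartilage collagen type XI, averaged 5.06 ± 3.42 normalized counts in OXA and 6.29 ± 6.03 in vehicle libraries (SD, n = 5 each). Col2a1, the type II chain that defines cartilage, was at 0 in 7 of 10 libraries with 4 reads in all, and Col11a2 and Col24a1 had 22 and 27 reads over the 10 libraries.

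**Figure D2:**
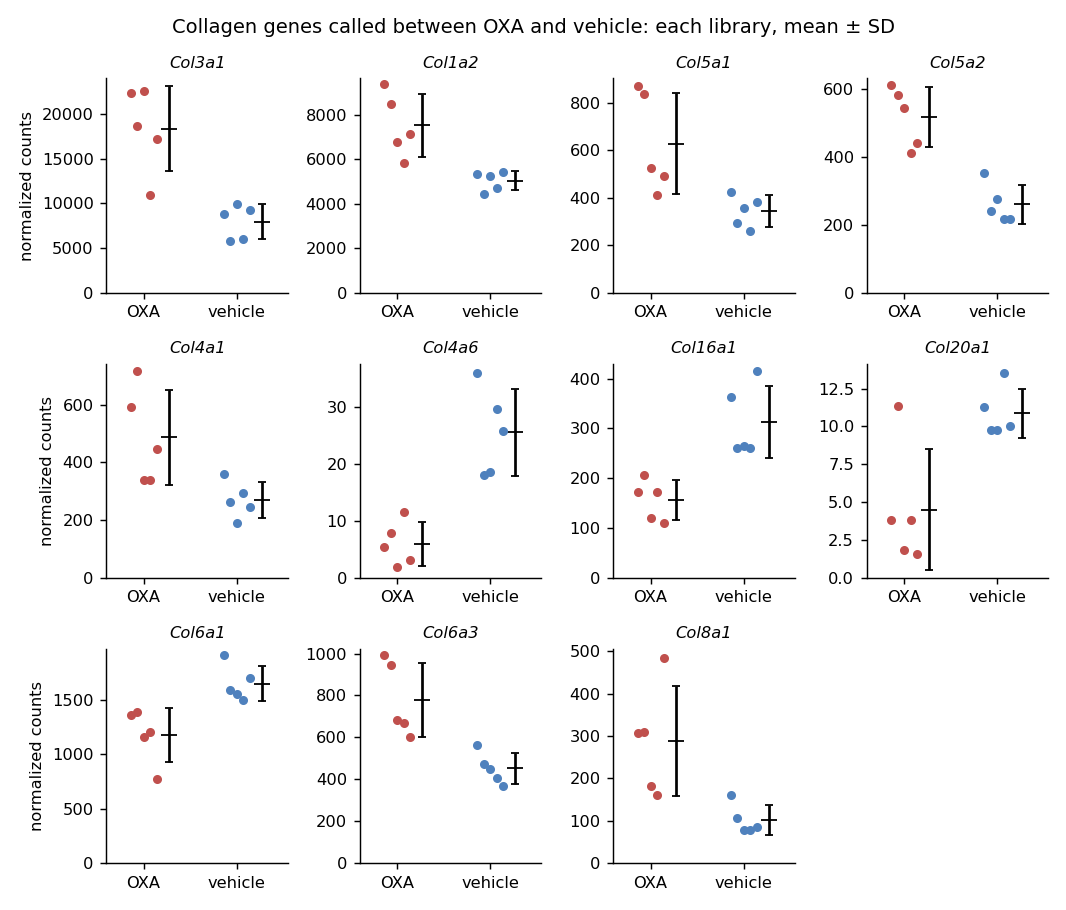
Normalized counts of the 11 called collagen genes in each library, with the mean ± SD of 5 libraries beside the points; OXA is left of vehicle in each panel, and each vertical axis starts at 0. For Col3a1 the 5 OXA libraries lie between 10935 and 22598 and the 5 vehicle libraries between 5804 and 9951.

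The fibrillar genes also took a larger part of all collagen counts, and by the means Col3a1 carried this rise. Col3a1 averaged 18382 of 37015 collagen normalized counts in OXA and 7969 of 21937 in vehicle libraries. By the means, the other fibrillar genes together did not take a larger share. Library by library the share of Col3a1 overlapped between the groups, at 10935 of 26229 in D3 (OXA) and 9951 of 23494 in A3 (vehicle). The summed normalized counts of all fibrillar genes were 36883, 31930.0, 32273, 19723 and 27724 in the OXA libraries and 17221, 12502, 17484, 12960.3 and 17113 in the vehicle libraries, 1.92-fold higher by the means and without overlap. Their share of collagen counts was 80.0% ± 3.69 in OXA and 70.3% ± 2.95 in vehicle libraries (SD, n = 5 each), and the groups did not overlap. Counts are of tags near the 3′ ends of transcripts, with no correction for transcript length, and the share weighs genes by the tags they yield. Fibroblast markers had a summed level between 10825 and 20616 normalized counts in OXA and 14434 and 21878 in vehicle libraries. Dcn was the largest member of this sum, with means of 8835 in OXA and 10381 in vehicle libraries. Of 16 tested none rose and Fbln1 fell in limma's test, beside 15.7% higher and 14.2% lower over all tested genes (1 higher at an unadjusted p below 0.05, 0 with edgeR, DESeq2 and limma-voom). Leukocyte markers had a summed level between 3058 and 5697 normalized counts in OXA and 1489 and 2393 in vehicle libraries. Adipocyte markers summed to between 1788 and 3605 normalized counts in OXA and 897 and 1291 in vehicle libraries. Fabp4 made up most of this sum, with means of 1542 of 2539 in OXA and 715 of 1179 in vehicle libraries. Of 7 adipocyte markers tested, limma called 3 higher (Cfd, Fabp4 and Retn), none lower and 4 not, beside 15.7% higher over all tested genes. The epithelial sum given above was lower in OXA without overlap. Krt4 and Krt13 were its largest members, with vehicle means of 399541 and 306900 normalized counts. Of the 10 epithelial markers, limma called 2 higher (Cdh1 and Krt14) and 2 lower (Krt15 and Krt4). Over all tested genes the shares were 15.7% and 14.2%. The part of these cell types in the collagen values was not tested.

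**Figure D3:**
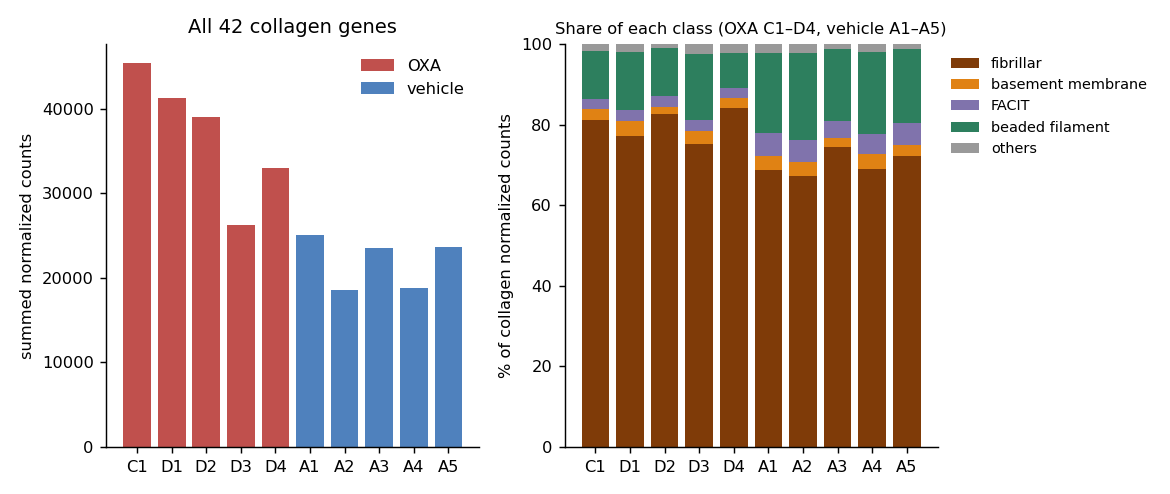
Summed normalized counts of the 42 collagen genes in each library (left) and the percentage contributed by each class (right), OXA libraries C1 to D4 followed by vehicle libraries A1 to A5. Fibrillar genes contribute 75.2 to 84.0% in OXA libraries and 67.2 to 74.4% in vehicle libraries.

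Of 5 tested basement membrane genes, Col4a1 rose, Col4a6 fell and 3 were not called, with a median log2 fold change of -0.25. These counts are near the 15.7% higher and 14.2% lower over all tested genes. Col4a1 and Col4a2 encode the chains of the type IV trimer found in nearly all basement membranes. Col4a1 had 592, 716, 339, 340.0 and 447 normalized counts in the OXA libraries, against 358, 262, 191, 294 and 245 in the vehicle libraries. D2 and D3 lay within the vehicle range, and the log2 fold change was 0.81 ± 0.22 (limma adjusted p = 0.0144). Col4a2 averaged 426 ± 194 normalized counts in OXA and 254 ± 62.5 in vehicle libraries (SD, n = 5 each) and missed the threshold (log2 fold change 0.65 ± 0.29, limma adjusted p = 0.109). D2 again held the lowest OXA value, 197 normalized counts, and without it Col4a2 was called (log2 fold change 0.89, limma adjusted p = 0.0144). With the muscle scores as covariates the log2 fold change of Col4a2 was 1.30 (limma adjusted p = 0.00150), without A5, D2 and D4 it was 1.1 (0.00607), and DESeq2 called it as well (0.0427). Endothelial markers had a summed level between 608 and 1485 normalized counts in OXA and 511 and 911 in vehicle libraries, with D2 and D4 lowest among the OXA libraries; their part in the type IV values was not tested. The class sum was 1035 ± 347 in OXA and 686 ± 136 in vehicle and overlapped between the groups.

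Col4a5 and Col4a6 encode the chains of the α5α5α6 trimer, which is known from basement membranes of stratified epithelium and smooth muscle. Col4a6 had 5.34, 7.82, 1.81, 11.5 and 3.19 normalized counts in the OXA libraries, against 36.0, 18.0, 18.5, 29.6 and 25.8 in the vehicle libraries. Each OXA library lay below each vehicle library, and the log2 fold change was -2.08 ± 0.43 (limma adjusted p = 0.00247). The gene gave 186 reads over the 10 libraries, and its values in D2 and D4 lie under what 3 reads are worth in those libraries. Col4a5 had 114, 91.7, 118, 111 and 104 normalized counts in the OXA libraries, against 139.7, 127, 132, 126 and 117 in the vehicle libraries. All OXA libraries but D2 lay below the lowest vehicle library, A5, and the log2 fold change of -0.25 ± 0.14 was not called (limma adjusted p = 0.190). Col4a5 and Col4a6 start 1308 bases apart on opposite strands of chromosome X. Col4a4 averaged 7.02 ± 7.54 normalized counts in OXA and 7.33 ± 4.35 in vehicle libraries (SD, n = 5 each) and was not called, and Col4a3 had 14 reads over the 10 libraries; these chains form a trimer with α5 that is best known from kidney.

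Among the FACIT collagens none of 5 tested rose in limma's test and 2 fell, beside 15.7% higher and 14.2% lower over all tested genes. For 5 genes, a count of 0 higher is close to that share. The median log2 fold change was -1.01. At an unadjusted p below 0.05, and with edgeR, DESeq2 and limma-voom, the count higher was also 0. The count lower was 2 at an unadjusted p below 0.05, and 1 with each of edgeR, DESeq2 and limma-voom. Col16a1 encodes type XVI collagen, a FACIT made by fibroblasts and smooth muscle cells. Col16a1 had 173, 206, 119, 171 and 110.2 normalized counts in the OXA libraries, against 363, 261, 265, 261 and 415 in the vehicle libraries. The groups did not overlap, and the log2 fold change was -1.01 ± 0.20 (limma adjusted p = 0.00192). Without A5, D2 and D4 it was -0.64 and remained called (limma adjusted p = 0.0116). Smooth muscle markers had a summed level between 12847 and 28876 normalized counts in OXA and 19781 and 36505 in vehicle libraries. Des was the largest member of this sum, with means of 7654 in OXA and 9102 in vehicle libraries. It was at 14116 in D1, the OXA library with the highest smooth muscle sum, which also had the highest skeletal muscle sum. Of 11 smooth muscle markers tested, 3 fell in limma's test, beside 14.2% of all tested genes. The count lower was 7 at an unadjusted p below 0.05, 5 with edgeR, 6 with DESeq2 and 3 with limma-voom, and none rose by any of these. With smooth and skeletal muscle scores as covariates the log2 fold change of Col16a1 was -0.79 (limma adjusted p = 0.0174) and that of Col4a6 -1.31 (limma adjusted p = 0.0477).

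Col20a1, a FACIT gene with few counts here, was called lower at the edge of the threshold. Col20a1 had 3.82, 11.4, 1.81, 3.83 and 1.60 normalized counts in the OXA libraries, against 11.3, 9.75, 9.74, 13.5 and 10.02 in the vehicle libraries. D1 lay within the vehicle range, and the log2 fold change was -1.35 ± 0.48 (limma adjusted p = 0.0460). The gene gave 94 reads in all, and it missed the threshold in 17 of 23 alternatives, which include the omission of any 1 library other than D1 (limma adjusted p between 0.0685 and 0.102). Col14a1, which binds the surface of type I fibrils, did not differ beyond the spread between libraries. Col14a1 had 884, 818, 947, 497 and 611 normalized counts in the OXA libraries, against 924, 627, 713, 519.9 and 747 in the vehicle libraries. Its log2 fold change was 0.07 ± 0.20 (limma adjusted p = 0.805). Col12a1, the related type XII chain, averaged 57.4 ± 18.0 normalized counts in OXA and 83.5 ± 31.0 in vehicle libraries (SD, n = 5 each; limma adjusted p = 0.242), and the cartilage FACIT gene Col9a2 averaged 5.0 ± 3.41 normalized counts in OXA and 10.4 ± 5.35 in vehicle libraries (SD, n = 5 each; limma adjusted p = 0.185).

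The other 4 FACIT genes were too low to test. Col22a1, known from junctions of muscle and tendon, had 58 reads over the 10 libraries, Col9a3 had 15 and Col9a1 had 13, all of them in D1. Col19a1, which mice need for normal muscle development of the esophagus, had 12 reads. The summed FACIT counts were 982 ± 202 in OXA and 1133 ± 220.1 in vehicle and overlapped between the groups. As a share of collagen counts, FACIT genes made up 2.66% ± 0.187 in OXA and 5.15% ± 0.537 in vehicle libraries, with no overlap. Class shares are parts of a whole, so a larger fibrillar share lowers the others, and the FACIT sum itself was 0.867-fold by the means.

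Type VI collagen, the beaded filament, is built of an α1 and an α2 chain with another chain that is most often α3. Of its 5 tested genes 1 rose, 1 fell and 3 were not called, with a median log2 fold change of 0.04. Such counts are near the 15.7% higher and 14.2% lower over all tested genes. Col6a3, the gene of the α3 chain, rose. Col6a3 had 992, 943, 681, 669 and 603 normalized counts in the OXA libraries, against 565, 471, 450.2, 404 and 369 in the vehicle libraries. The groups did not overlap, and the log2 fold change was 0.77 ± 0.17 (limma adjusted p = 0.00363). Col6a1 fell. Col6a1 had 1359, 1388, 1160.5, 1212 and 773 normalized counts in the OXA libraries, against 1918, 1592, 1554, 1501 and 1706 in the vehicle libraries. Its values did not overlap either, and the log2 fold change was -0.51 ± 0.16 (limma adjusted p = 0.0292). This call was lost without A1 (limma adjusted p = 0.0748), without A5 (0.0548), with counts scaled to the library total (0.104) and with the muscle scores as covariates (0.0727). Without A5, D2 and D4 together the log2 fold change was -0.31 and was not called (limma adjusted p = 0.104).

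Col6a2, the α2 chain, overlapped between the groups. Col6a2 had 3012, 3541, 2766, 2375 and 1465 normalized counts in the OXA libraries, against 2438, 1889.9, 2121, 1887 and 2281 in the vehicle libraries. D4 was the lowest of the 10 libraries and D1 the highest, and the log2 fold change was 0.26 ± 0.21 (limma adjusted p = 0.374). Without D4 it was 0.45 and was called (limma adjusted p = 0.0381), as it was without A5, D2 and D4 (0.50, limma adjusted p = 0.0421). Col6a5 and Col6a6 encode chains that can replace α3. Col6a5 averaged 24.6 ± 17.0 normalized counts in OXA and 22.5 ± 11.3 in vehicle libraries (SD, n = 5 each; limma adjusted p = 0.961), and Col6a6 averaged 10.5 ± 6.53 normalized counts in OXA and 20.9 ± 3.81 in vehicle libraries (SD, n = 5 each; limma adjusted p = 0.121). Col6a4 had 29 reads and was not tested. The summed normalized counts of the class were 4626 ± 1179 in OXA and 4275 ± 434 in vehicle, and its share of collagen counts was 12.6% ± 2.92 in OXA and 19.6% ± 1.53 in vehicle libraries, without overlap. The share was thus lower although the class sum was 1.08-fold by the means, because the fibrillar share was larger.

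Log2 ratios between pairs of collagen genes were then compared, since a difference between 2 calls does not show that the genes changed by different amounts. For 11 pairs the groups were compared by exact permutation of the libraries, two-sided, with 0.00794 as the smallest possible p and with adjustment over the 11 pairs. Type VI gave 2 of the 3 pairs that passed. Both hold Col6a1 and are therefore not independent, and Col6a3 to Col6a2 was not among the 11 pairs. The log2 ratio of Col6a3 to Col6a1 averaged -0.60 ± 0.21 in OXA and -1.88 ± 0.19 in vehicle esophagus (SD, n = 5 each), a difference of 1.28 (exact permutation p = 0.00794, adjusted p = 0.0291). That of Col6a1 to Col6a2 averaged -1.13 ± 0.18 in OXA and -0.36 ± 0.08 in vehicle, a difference of -0.77 (exact permutation p = 0.00794, adjusted p = 0.0291). Values did not overlap in either pair. For Col6a3 to Col6a1 this outcome was fixed beforehand, since each OXA library lay above vehicle for Col6a3 and below it for Col6a1. The smallest possible p of that pair thus restates the separation of the 2 genes and adds no further evidence.

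The remaining pair that passed was Col4a5 to Col4a6, whose log2 ratio averaged 4.16 ± 0.92 in OXA and 2.33 ± 0.40 in vehicle, a difference of 1.83 without overlap (exact permutation p = 0.00794, adjusted p = 0.0291). Its adjusted exact p was 0.0582 without A1, A2, A4 or A5. Without A5, D2 and D4 together, none of the 3 pairs passed (adjusted exact permutation p = 0.0786 each, with 0.0286 as the smallest possible p), and the Col4a5 to Col4a6 difference was 1.21. The pairs within type I and within type V did not pass, at -0.06 for Col1a1 to Col1a2 (adjusted exact p = 0.659) and -0.17 for Col5a1 to Col5a2 (adjusted exact p = 0.398). Col4a1 to Col4a2, the partner chains of the common type IV trimer, differed by 0.16 (adjusted exact p = 0.445).

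The type III to type I ratio, Col3a1 to Col1a1, averaged 2.86 ± 0.50 in OXA and 2.17 ± 0.36 in vehicle, a difference of 0.70 that missed the threshold after adjustment (exact permutation p = 0.0317, adjusted p = 0.0698) and passed without A3 (0.82, adjusted exact p = 0.0437). Col4a1 to Col1a1 differed by 0.31 (exact permutation p = 0.0238, adjusted p = 0.0655) and passed without D3 (0.35, adjusted exact p = 0.0218). Col5a1 to Col1a1 differed by 0.32 (adjusted exact p = 0.116), Col12a1 to Col14a1 by -0.57 (adjusted exact p = 0.229) and Col15a1 to Col18a1 by 0.85 (adjusted exact p = 0.137).

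**Figure D4:**
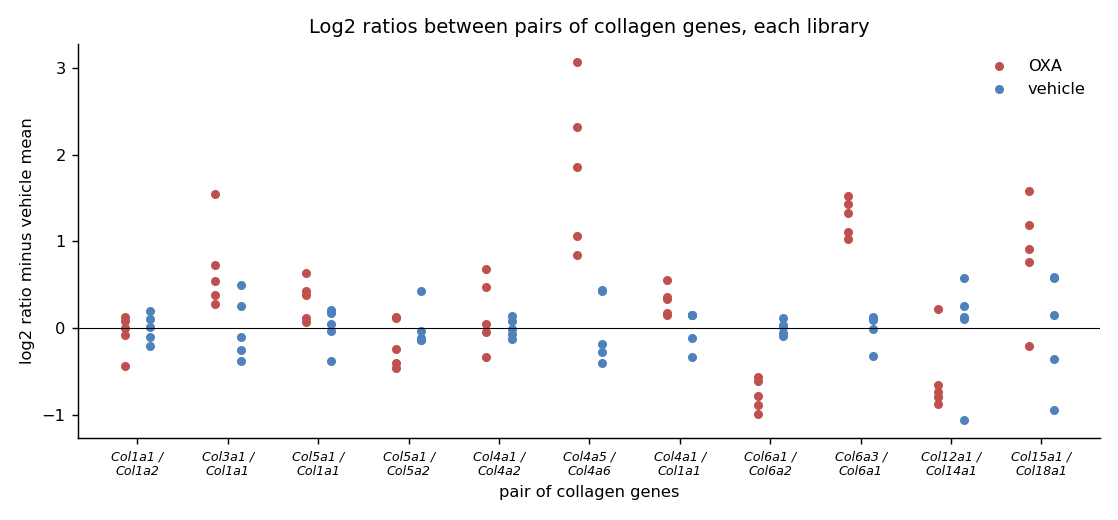
Log2 ratio of the normalized counts (plus 1) of 2 collagen genes in each library, minus the vehicle mean of that pair; OXA points are left of vehicle points. The groups separate in Col4a5 to Col4a6, Col6a1 to Col6a2 and Col6a3 to Col6a1, whose mean differences are 1.83, -0.77 and 1.28.

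Among the other collagens, 1 of 6 tested genes rose and none fell in limma's test, near the 15.7% and 14.2% of all tested genes. The count lower was 1 at an unadjusted p below 0.05 and with limma-voom, and 0 with edgeR and DESeq2. The median log2 fold change was -0.09, and summed normalized counts were 666 ± 173 in OXA and 387 ± 112 in vehicle. Col8a1 encodes a short-chain collagen that forms lattices around vessels and in the cornea. Col8a1 had 306, 309, 181, 159.9 and 485 normalized counts in the OXA libraries, against 161, 106, 78.0, 76.9 and 84.4 in the vehicle libraries. D3 lay just under the highest vehicle library, A1, and the log2 fold change was 1.44 ± 0.29 (limma adjusted p = 0.00208). It was called in each of the 24 alternatives. Col15a1, a multiplexin of the zone between basement membrane and fibrils, was spread widely in both groups. Col15a1 had 331, 372, 112, 352 and 204 normalized counts in the OXA libraries, against 247, 175, 126, 186 and 83.0 in the vehicle libraries. Its log2 fold change was 0.71 ± 0.34 (limma adjusted p = 0.132), and without D2, the lowest OXA library, it was 1.0 and was called (limma adjusted p = 0.0170). With the muscle scores as covariates the log2 fold change of Col15a1 was 1.5 (limma adjusted p = 0.00125), and without A5, D2 and D4 it was 0.97 (0.00394). The other multiplexin, Col18a1, the source of endostatin, averaged 63.2 ± 21.3 normalized counts in OXA and 68.3 ± 18.2 in vehicle libraries (SD, n = 5 each) and was not called (limma adjusted p = 0.722).

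The membrane-spanning collagens were low. Col23a1 averaged 13.8 ± 6.84 normalized counts in OXA and 23.6 ± 4.00 in vehicle libraries (SD, n = 5 each), with a log2 fold change of -0.85 ± 0.35 that was not called (limma adjusted p = 0.0816) but was without D2 (0.0453) or D3 (0.0428), after quantile normalization (0.0422) and with limma-voom (0.0480). Col13a1, which has a role at the neuromuscular junction, averaged 10.97 ± 8.76 normalized counts in OXA and 10.6 ± 4.45 in vehicle libraries (SD, n = 5 each), and Col25a1 averaged 7.73 ± 5.56 normalized counts in OXA and 8.59 ± 6.81 in vehicle libraries (SD, n = 5 each); neither was called. Col26a1, Col8a2, Col28a1 and Col10a1, the last a marker of hypertrophic cartilage, had 16 to 36 reads each over the 10 libraries and were not tested.

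On the genome, several called genes lie beside another member. Col3a1 (chromosome 1, 45311538 to 45350006) and Col5a2 (chromosome 1, 45374021 to 45503282), both called higher, lie tail to tail, with their 3′ ends 24014 bases apart. Col6a1 (chromosome 10, 76708492 to 76726168) lies 84861 bases from Col6a2 on the same strand and fell, whereas Col6a2 was not called. Positions are those of the deposited table on GRCm38, in which gene ends reach 300 bases past the 3′ end of the GENCODE M21 annotation for the 41 members of the same version. Col4a1 and Col4a2 start within 22 bases of each other on opposite strands and overlap there, and 10 members share exon bases with a gene on the other strand. The strand setting of the counting is not stated in the sources at hand, and such reads cannot be told apart. Col3a1 and Col20a1 also share exon bases with another annotated gene on their own strand, and the values of these pairs are uncertain to that extent. The 300 bases added at the 3′ end hold another annotated gene in 7 members, Col4a1 and Col20a1 among the called ones.

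Of 19 tested collagen folding genes 2 rose, of 9 tested export genes 2 rose, and of 5 tested crosslinking genes 3 rose, beside 15.7% of all tested genes. Over 5 lists of genes that fold, export, trim, crosslink and bind collagen, 48 of 52 genes were tested, 9 rose and 2 fell, beside the 15.7% and 14.2% of all genes, and the median log2 fold change was 0.07. The count lower was 0 without A3 and 1 without A1, A4, A5, C1 or D4. Lysyl oxidases oxidise lysines so that neighbouring collagen molecules can be crosslinked, and 3 of the 5 genes rose. Loxl1 had 329.8, 329.8, 368, 166 and 377 normalized counts in the OXA libraries, against 134, 102, 159.8, 67.5 and 97.3 in the vehicle libraries. The groups did not overlap, and the log2 fold change of Loxl1 was 1.48 ± 0.26 (limma adjusted p = 0.000725). Loxl2 had 550.4, 523, 492, 359 and 211 normalized counts in the OXA libraries, against 225, 192, 161, 136 and 213 in the vehicle libraries. D4 lay within the vehicle range, and the log2 fold change of Loxl2 was 1.14 ± 0.24 (limma adjusted p = 0.00308). Lox had 87.8, 73.9, 114, 20.1 and 75.0 normalized counts in the OXA libraries, against 13.3, 19.5, 18.5, 38.4 and 10.02 in the vehicle libraries. D3 lay within the vehicle range, and the log2 fold change of Lox was 1.79 ± 0.44 (limma adjusted p = 0.00753). Lox was not called with the muscle scores as covariates (limma adjusted p = 0.0845) or without A5, D2 and D4 (0.0799). Loxl3 averaged 25.6 ± 13.1 normalized counts in OXA and 23.3 ± 5.69 in vehicle libraries (SD, n = 5 each), and Loxl4 averaged 7.76 ± 3.97 normalized counts in OXA and 3.19 ± 2.71 in vehicle libraries (SD, n = 5 each); neither was called.

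**Figure D5:**
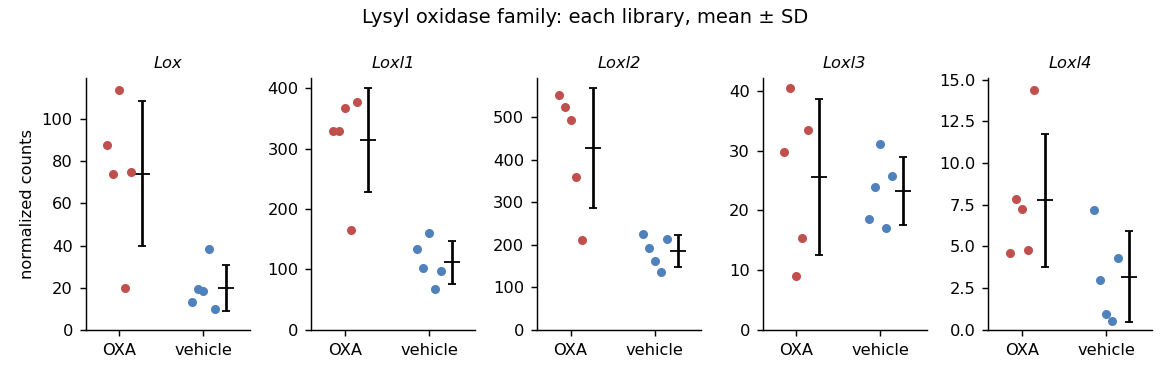
Normalized counts of the 5 lysyl oxidase genes in each library, with the mean ± SD of 5 libraries beside the points, OXA left of vehicle. Summed over the 5 genes, OXA libraries lie between 565 and 1002 and vehicle libraries between 259.7 and 398 normalized counts.

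Of 19 tested genes that fold and modify collagen in the endoplasmic reticulum, 2 rose and none fell in limma's test; 1 was lower at an unadjusted p below 0.05, 0 with edgeR, 1 with DESeq2 and 1 with limma-voom. P4ha3, a catalytic subunit of prolyl 4-hydroxylase, averaged 40.8 ± 19.1 normalized counts in OXA and 12.4 ± 10.4 in vehicle libraries (SD, n = 5 each), with a log2 fold change of 1.84 ± 0.51 (limma adjusted p = 0.0151); with the muscle scores as covariates it was not called (limma adjusted p = 0.0713). Fkbp14, a prolyl isomerase, averaged 146 ± 26.5 normalized counts in OXA and 97.4 ± 29.0 in vehicle libraries (SD, n = 5 each; limma adjusted p = 0.0478) and lost its call in 12 of 24 alternatives, 8 of them without 1 library other than A3 or D2 (limma adjusted p between 0.0537 and 0.119). Of 9 tested export genes 2 rose and 1 fell. Mia3, which loads procollagen into carriers leaving the endoplasmic reticulum, averaged 1086 ± 327 normalized counts in OXA and 579 ± 86.4 in vehicle libraries (SD, n = 5 each), with a log2 fold change of 0.87 ± 0.18 (limma adjusted p = 0.00263). Sec24d, part of the coat of those carriers, averaged 678 ± 179 normalized counts in OXA and 422 ± 66.0 in vehicle libraries (SD, n = 5 each; limma adjusted p = 0.0141), and Sar1b, the small GTPase that starts the coat, averaged 872 ± 128 normalized counts in OXA and 1261 ± 231 in vehicle libraries (SD, n = 5 each; limma adjusted p = 0.0188), a call that was lost without A3 (limma adjusted p = 0.0535). With the muscle scores as covariates Sec24d was not called (limma adjusted p = 0.0740).

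None of 6 tested propeptide-processing genes, which trim the ends of procollagen, was called by limma, and their median log2 fold change was 0.44. At an unadjusted p below 0.05 1 was higher, and edgeR, DESeq2 and limma-voom called 0. Among 9 tested receptors and uptake genes, 2 rose and 1 fell. Lair1, an inhibitory collagen receptor of leukocytes, averaged 179.8 ± 46.9 normalized counts in OXA and 18.7 ± 10.6 in vehicle libraries (SD, n = 5 each), with a log2 fold change of 3.45 ± 0.46 (limma adjusted p = 9.31e-05), beside the higher leukocyte marker sums given above. Itgb1, the β1 chain of the collagen-binding integrins, averaged 1284 ± 225 normalized counts in OXA and 834 ± 67.4 in vehicle libraries (SD, n = 5 each; limma adjusted p = 0.00458). Adgrg1, a receptor for type III collagen in the mouse brain, averaged 69.0 ± 17.0 normalized counts in OXA and 101.0 ± 6.49 in vehicle libraries (SD, n = 5 each; limma adjusted p = 0.0331) and lost its call in 11 of 24 alternatives, 7 of them without 1 library (A1, A3, A4, A5, C1, D2 or D4; limma adjusted p between 0.0515 and 0.0697).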

How the data were processed

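RNA of 10 mouse esophagus libraries, 5 OXA and 5 vehicle, was extracted with TRIZOL and sequenced by CEL-Seq on an Illumina HiSeq instrument, as the labels' protocols state. The submitters' processing notes name FastQC 0.11.5, Trim Galore, cutadapt 1.10, Bowtie2 2.2.6, TopHat2 2.1.0, HTSeq 0.11.2, DESeq2 1.18.1 and GRCm38, without roles; the annotation release, strand setting and handling of molecular identifiers were not given in the sources used here. The authors deposited 1 table whose signal values are gene counts divided by a size factor for each library. Multiplying by recovered size factors gave whole reads for 100% of values, within 0.006 on the deposited scale. Depth was 3675479 to 12108822 reads, which limits precision most in D2, D4 and A5.

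Members were found by symbol, and the 14712 of 54446 genes whose average normalized count reached 5 were tested with limma 3.58.1 (trend) in R 4.3.3 on log2(value + 1), with Benjamini-Hochberg adjustment, called below 0.05. Log2 fold changes on this scale understate changes of low genes. Pair ratios used exact two-sided permutation tests of the library labels. Alternatives covered pseudocounts, filters, scalings, edgeR 4.0.16, DESeq2 1.42.0 and limma-voom on recovered reads, robust variances, muscle covariates, a block on the label number and left-out libraries; edgeR called 2411 genes higher and 1972 lower, against 2309 and 2085. The fit was tested on simulated data. The members, classes and gene lists were chosen with earlier results of these data known. Every member is named; called members, the member with most counts in each class and genes of passing ratios have values in each library, and from assembly lists the called genes are named. Genes overlapping on a strand were matched with GENCODE M21, and promoter windows come from RefSeq (GRCm38.p6).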

Additional observations from a re-analysis of the deposited data

Results flagged for a closer look

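Over 70 sets of 5 libraries, 1 had a library far from the others by Dixon's criterion, where chance alone gives about 5%. It was Col6a6 in OXA esophagus, a type VI chain gene, which was at 0 in D2 and between 9.58 and 16.8 normalized counts in the other 4 OXA libraries. D2 was the shallowest library, where 3 reads are worth 5.43 normalized counts.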

How the results depend on the processing

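Across 24 alternatives (23 for Col4a6 and Col20a1, which the filter of 20 removes) none of the 11 called collagen genes changed direction. Their call was kept in 236 of 262 fits and lost in 26, and the 18 other tested genes gained a call in 25 of 425 fits. The count of collagen genes called higher, 7, ranged between 6 and 11 when 1 library was left out, and was 12 both with muscle scores as covariates and without A5, D2 and D4; the 7 genes were among the 12 in both. The count called lower, 4, ranged between 2 and 4 when 1 library was left out, and was 2 with a mean of at least 20 as the filter, with scaling to the library total, with the muscle scores and without A5, D2 and D4. Under the filter of 20 fewer collagen genes are tested; for the other settings the cause was not tested. The count of assembly and receptor genes called higher, 9, ranged between 8 and 11 when 1 library was left out. That of genes called lower, 2, ranged between 0 and 3 when 1 library was left out (0 without A3), and was 1 without a filter, 1 with scaling to the library total, 4 after quantile normalization and 5 with the muscle scores. The count of pair ratios that passed, 3, ranged between 2 and 4 when 1 library was left out, and was 0 without A5, D2 and D4, where the smallest possible p is 0.0286. Numbers 1 to 4 occur in the labels of both groups, but nothing ties a number to a shared animal or batch. With this number as a replicate block, an alternative chosen after seeing the data, 6 collagen genes were higher and 3 lower, and 0 of 5 OXA libraries correlated best with the vehicle library of their own number (r between -0.23 and 0.19 for libraries of the same number). Depth limits the 13 untested genes most, and tested genes with few reads, down to 60 for Col11a1 and, among called genes, 94 for Col20a1, and a call that misses the threshold does not show that levels were alike.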

Other observations

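Col9a1, a cartilage FACIT chain, gave 13 reads, all in the OXA library D1, and was at 0 in the other 9 libraries. D1 also held the highest value of Col4a4, at 19.2 normalized counts, and of Col6a5, at 52.6 normalized counts, and its skeletal muscle marker sum, 308534 normalized counts, was the highest of the 10 libraries. Pericyte markers summed to between 1202 and 1793 normalized counts in OXA and between 1139 and 1656 in vehicle libraries, and Schwann cell markers to between 999 and 1604 in OXA and between 916 and 1783 in vehicle libraries.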
